A study of Mus musculus with 2 samples.

Results

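The paired regions with relatively more Pemt-/- tags are stretches of methylated liver DNA that were listed in both mice and held at least 1.2 times as many reads (tags) in the Pemt-/- library, against the general trend of these data. They were chosen by their tags alone. A Pemt-/- region and a Pemt+/+ region were paired when they overlapped by at least 1 bp and neither overlapped a second region of the other list. The pair had to hold at least 40 tags in sum, and its Pemt-/- tags divided by its Pemt+/+ tags had to reach 1.2. Of 79393 overlapping pairs, 33863 held 40 or more tags (well-covered pairs), and 647 of these reached the ratio, which is 1.91% (95% Wilson confidence interval 1.77 to 2.06%, counting error only). The remaining 33216 well-covered pairs serve as the comparison throughout.

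Both libraries came from liver under a diet rich in fat and sucrose, the HFHS diet, with 1 library from a Pemt-/- mouse and 1 from a Pemt+/+ mouse. There is therefore no replicate and no test of the genotypes, and each difference is between these 2 libraries. Pemt-/- mice lack phosphatidylethanolamine N-methyltransferase in the whole body, and the Methods describe male animals. The series record dates the HFHS feeding from 5 weeks of age and the tissue to 25 weeks of age, while the Methods mention livers after shorter feeding before the enrichment step. The labels also speak of bisulphite conversion ahead of the capture, which the Methods do not. Strain, littermate status and the source of the null allele are not given in the sources used here. Methylated DNA was enriched with a capture kit and sequenced, and the authors deposited a longer list of 97063 regions for Pemt-/- and 131279 for Pemt+/+, with the tags counted in each region. The tissue label cannot be checked from such lists, which hold no expression.

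In mammals DNA methylation is placed mainly on the cytosine of CG pairs, by enzymes that use S-adenosylmethionine as the methyl donor. Pemt draws on the same donor to make phosphatidylcholine in the liver, and the study asked how its loss bears on DNA methylation. Most CG pairs of the genome, in gene bodies and between genes, are methylated, whereas CG-rich promoters of active genes usually are not. Capture with a methyl-binding protein pulls down fragments with methylated CG pairs, so that tags follow both methylation and the local density of CG pairs, and a ratio between libraries also carries their depth.

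The ratio of 1.2 lies far from the centre of the data. Summed over all well-covered pairs, 38.6% of the tags came from Pemt-/-, a common ratio of 0.629, and the median pair had a ratio of 0.625. As the lists do not give how many reads each library had, this common ratio stands for their relative depth, and any change of methylation shared by all regions is contained in it. Against the common ratio a value of 1.2 is a 1.91-fold excess. Only 1823 well-covered pairs, 5.38%, held more Pemt-/- than Pemt+/+ tags at all. All 647 regions were therefore above the trend by construction, and the values below describe them without testing them.

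**Figure D1:**
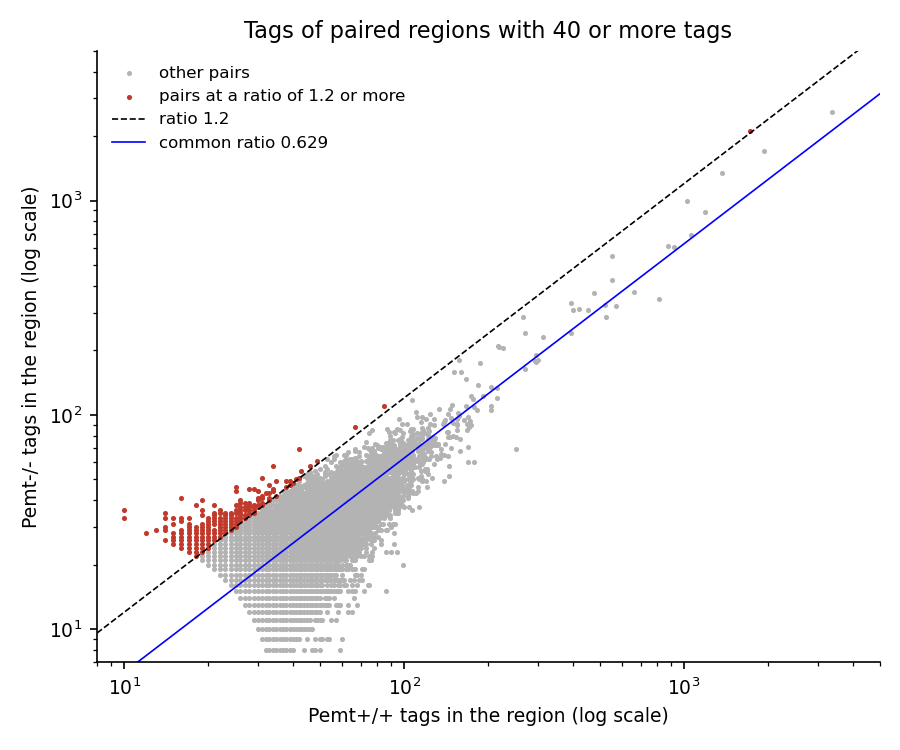
Tags of the well-covered pairs, with Pemt+/+ tags on the x axis and Pemt-/- tags on the y axis, both on a log scale, and a point for each combination of tag numbers that occurred. The dashed line is a ratio of 1.2 and the blue line the common ratio of 0.629. The red points at a ratio of 1.2 or more lie along the upper edge of the cloud, nearly all under 100 tags, with a single point at 2101 against 1720 tags far to the right.

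The 647 pairs held 20883 tags in Pemt-/- and 15471 in Pemt+/+. Pemt-/- tags ranged from 22 to 2101 with a median of 27, and Pemt+/+ tags from 10 to 1720 with a median of 20. The ratios were mostly just above the limit, with a median of 1.32, an upper quartile of 1.45 and a highest value of 3.6. A ratio of 1.5 or more was reached by 139 pairs, of 2 or more by 18 pairs and of 3 or more by 2 pairs. The regions were small in tags even among well-covered ones, with a median sum of 47 tags against 55 in the other pairs.

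Positions below are those of the deposited lists, in the mouse build mm9, and give the Pemt-/- region. Next to the limit, the values run without a gap. The deepest pairs exactly at 1.2 were a region inside Heatr5b and upstream of Ccdc75 on chromosome 17 (48 against 40 tags), a region on chromosome 10 from 22379278 to 22379770 without a transcript nearby (42 against 35), and a region 3160 bp downstream of Rcl1 on chromosome 19 (42 against 35). Just outside the limit were a pair at Rora, a nuclear receptor gene, with 37 against 31 tags, a pair at Fstl1 with 31 against 26 tags, and a pair on chromosome 16 from 50107582 to 50108119 with the same tag numbers. All 3 of these had a ratio of 1.19.

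The number of pairs was compared with the number that Poisson counting would give if every well-covered pair kept its sum and split it at the common share of 38.6%. Under that model 330 pairs would reach 1.2, or 0.973% of the well-covered pairs, and 647 did, 1.96 times as many. On the other side of the trend, 880 pairs (2.6%) had a ratio of 0.329 or less, which is as far below the common ratio as 1.2 is above it, and 541 were expected, so that the observed number was 1.63 times the expected one. No Pemt-/- region of a well-covered pair held fewer than 8 tags, a floor that the expectation of the lower tail does not have. The 1.63 and 1.96 are therefore not like for like. At these limits more pairs than expected lay in both tails. A spread wider than counting error was thus not particular to the pairs with more Pemt-/- tags. Tags read from PCR products are not independent molecules, and duplicate handling is not given in the sources used here, so the Poisson number is a lower reference for the spread and not a test.

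**Figure D2:**
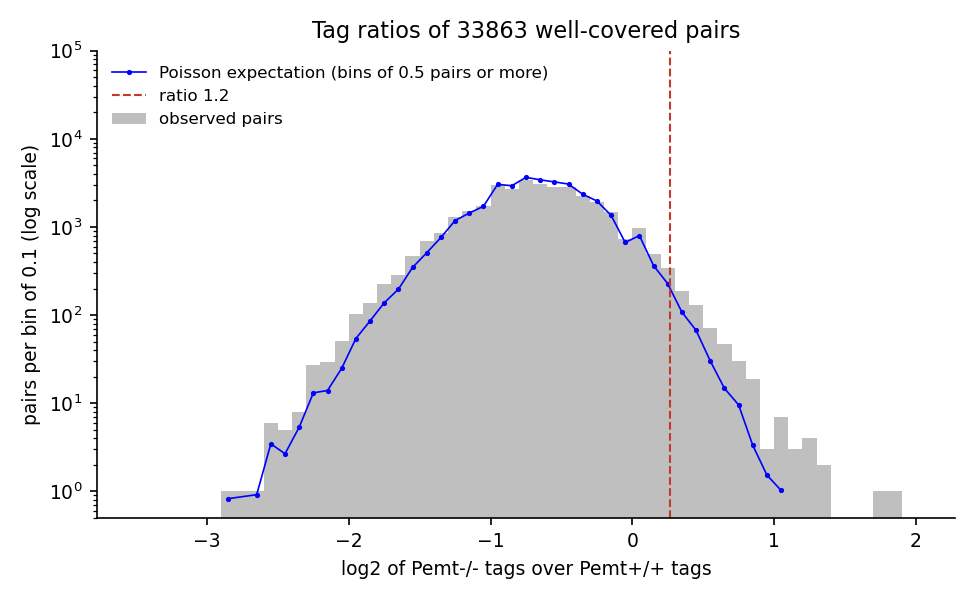
Number of well-covered pairs (log scale) by the log2 of Pemt-/- tags over Pemt+/+ tags, in bins of 0.1. Grey bars are observed pairs, the blue line is the Poisson expectation at the common share, and the dashed line marks a ratio of 1.2. The bars stand above the line in both outer parts.

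Higher ratios departed further from the expectation on this side, and observed numbers exceeded it in each band of depth. At a ratio of 1.5 or more, 139 pairs were found and 39.5 expected, and at 2 or more, 18 were found and 1.59 expected. In bins of 0.1, 7 pairs were found and 1.02 expected at log2 ratios from 1 to 1.1. About as far below the common ratio, from -2.4 to -2.3, 8 were found and 5.33 expected. The excess was smaller there, where the floor of 8 Pemt-/- tags also bears on the count. By depth, 401 pairs were found and 218 expected among those with 40 to 49 tags, 156 and 71.8 among those with 50 to 59 tags, and 71 and 34.6 among those with 60 to 79 tags. From 80 to under 120 tags there were 16 against 5.08. Only 3 of the 647 pairs held more, 2 of them from 120 to under 300 tags, where 0.101 were expected. The share of well-covered pairs that reached 1.2 fell from 3.26% (2.96 to 3.58%) at 40 to 49 tags to 0.339% (0.209 to 0.550%) from 80 to under 120 tags.

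**Figure D3:**
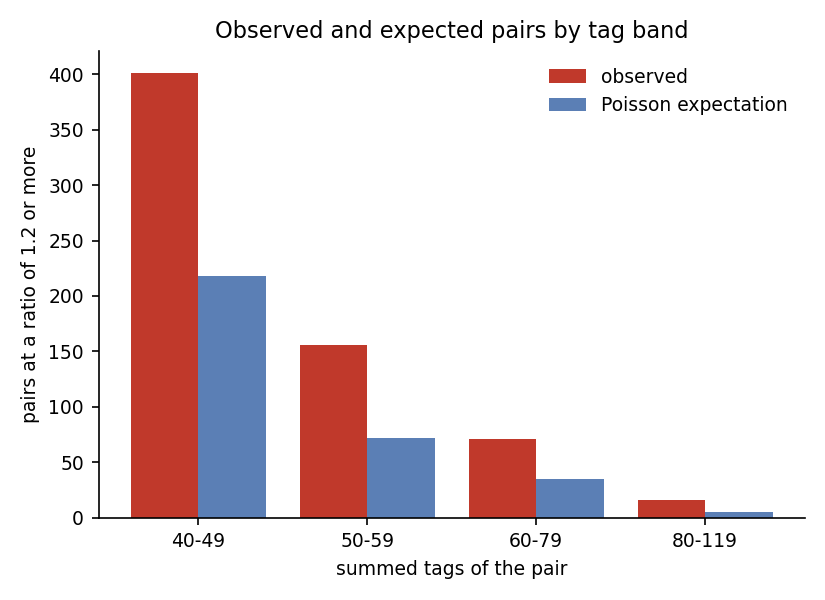
Number of pairs at a ratio of 1.2 or more by the summed tags of the pair, observed (red) and expected from Poisson counting at the common share (blue). Observed numbers are above the expected ones in all 4 bands, with 401 against 218 in the lowest and 16 against 5.08 in the highest band drawn.

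Region width, which the rule did not use, moved with the ratio. The Pemt-/- region had a median width of 612 bp (interquartile range 453.5 to 788.5 bp) and its Pemt+/+ counterpart 474 bp (343.5 to 579 bp). In the other well-covered pairs the order was opposite, with medians of 529 bp in Pemt-/- and 564 bp in Pemt+/+. The Pemt-/- region was more than 25% wider in 307 of the 647 pairs, 47.4% (43.6 to 51.3%), against 14.2% (13.8 to 14.6%) of the other pairs. Widths and tags come from the same reads.

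The excess over the Poisson number was smaller when it was added up within classes of relative width. Among the 20011 pairs of similar width, in which the wider region exceeded the other by at most 25%, 300 reached 1.2 and 224 were expected at the 39.1% share of that class, so that the observed number was 1.34 times the expected one. Where the Pemt-/- region was more than 2 times wider, 83 of 337 pairs reached 1.2, or 24.6% (20.3 to 29.5%), with 48.0 expected at the share of that class. Added over the 5 classes the expectation was 448, and the observed number 1.44 times that. This way of counting was chosen after the widths had been seen. Per bp of region, Pemt-/- tags stood to Pemt+/+ tags at a median ratio of 1.08 in the 647 pairs and of 0.658 in the others. A ratio of 1.2 or more per bp was kept by 246 of the 647 pairs, and 195 of these were also of similar width.

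**Figure D4:**
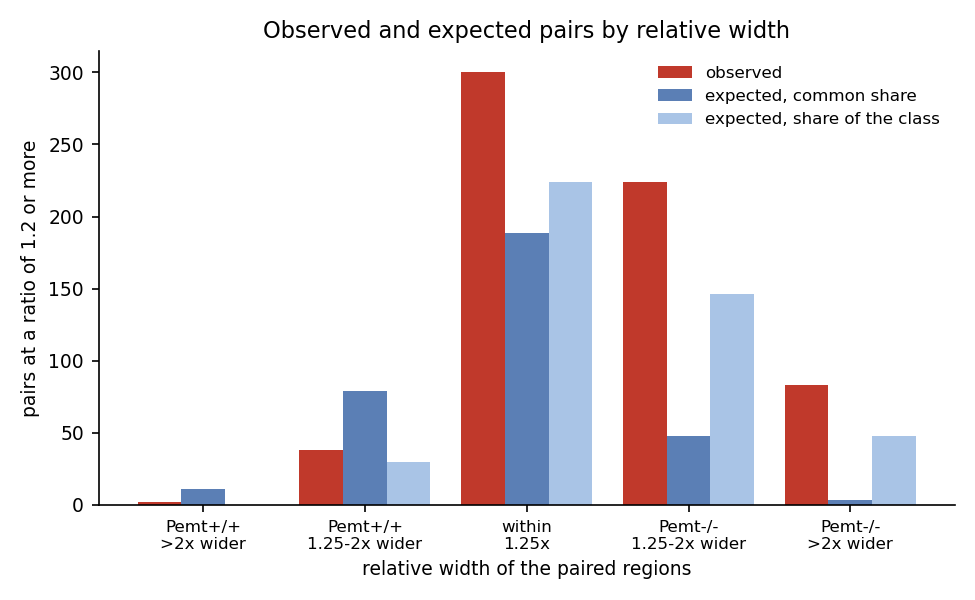
Number of pairs at a ratio of 1.2 or more in 5 classes of relative width, observed (red), expected at the share common to all well-covered pairs (dark blue) and expected at the share of the class itself (light blue). Most of the distance between red and dark blue stands in the classes where the Pemt-/- region was wider.

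The summits of the paired regions coincided about as closely here as elsewhere, with a median distance of 16 bp in both the 647 pairs and the others. Summits lay more than 200 bp apart in 47 pairs, 7.26% (5.51 to 9.53%), against 5.31% (5.07 to 5.55%) of the others. A further Pemt+/+ region lay within 500 bp of the Pemt-/- region in 67 pairs, 10.4% (8.24 to 12.9%), against 8.63% (8.34 to 8.94%). The fold enrichment over background, as the authors' caller gave it, had a median of 23.1 in Pemt-/- and 18.2 in Pemt+/+ in the 647 pairs, and 20.4 and 22.9 in the others. It is made from the same reads as the tags.

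Of the 10 pairs with the highest ratios, 7 lay in or near a listed gene. The first was inside Tmem2, the gene of a transmembrane protein that acts in hyaluronan turnover, on chromosome 19 from 21891338 to 21892371, with 36 against 10 tags. Of these tags 78.3% came from Pemt-/- (64.4 to 87.7%). The second was inside Dhtkd1, which encodes a mitochondrial enzyme of lysine breakdown, on chromosome 2 from 5832612 to 5833818, with 33 against 10 tags. The Pemt-/- regions of these pairs were 3.6 and 3.64 times as wide as their counterparts, and per bp the ratios came down to 0.999 and 0.908.

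A region inside Cat, the gene of catalase, which degrades hydrogen peroxide in peroxisomes, differed from these in width. It lay on chromosome 2 from 103294602 to 103295091 and held 28 tags in Pemt-/- and 12 in Pemt+/+, a ratio of 2.33, and with widths 1.03 times apart the ratio per bp was 2.27. It also lay 3459 bp downstream of Elf5. The same tag numbers were found inside Alg9, an enzyme of N-glycan assembly, on chromosome 9 from 50593287 to 50593883, where the Pemt-/- region was 1.95 times as wide and the ratio per bp came to 1.2 after rounding, just under the limit.

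Regions inside Pak1ip1, with 35 against 14 tags on chromosome 13 from 41099146 to 41100430, and inside Klhl8, with 29 against 13 tags on chromosome 5 from 104335864 to 104336740, were 2.30 and 3 times as wide in Pemt-/-. A region 8630 bp upstream of Cic, the gene of the transcriptional repressor capicua, held 33 against 14 tags on chromosome 7 from 26057152 to 26058567 and was 2.46 times as wide. The other 3 had no transcript within 10 kb. They lay on chromosome 4 from 60121902 to 60123246 (41 against 16 tags), on chromosome 19 from 11998095 to 11998802 (28 against 12) and on chromosome 5 from 67770635 to 67771753 (29 against 13). Of these 10 pairs, 1 had regions of similar width, that at Cat, and 3 reached 1.2 per bp, those at Cat and on chromosomes 4 and 19 without a transcript.

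Among the 647, the pair with the most tags lay on chromosome 17, from 39979833 to 39985907 in Pemt-/-, with 2101 tags in Pemt-/- and 1720 in Pemt+/+, a ratio of 1.22. Its regions were 6075 and 5998 bp wide and its fold enrichment was low, 4.86 and 6.61. The lists pair it with no transcript, and the nearest genes named in the lists were Olfr136 and Crisp3, 1515721 and 368846 bp away. RefSeq places 15 genes between Olfr136 and Crisp3 that the lists do not name there. Among them are several Esp genes, the non-coding RNA gene AY036118 and the pseudogene Rn18s-rs5. Whether the region overlaps any of them was not tested, so it should not be read as free of genes. The deepest of the other well-covered pairs held 5957 tags.

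Next in depth were a region 9089 bp upstream of Txndc11 on chromosome 16, from 11143714 to 11144562, with 110 against 85 tags, and a region inside 2610528E23Rik on the same chromosome, from 57391084 to 57391935, with 88 against 67 tags. Both kept a ratio above 1.2 per bp, 1.32 and 1.23. On chromosome 5 from 86031191 to 86031722, without a transcript nearby, there were 69 against 42 tags, a ratio of 1.64 and of 1.75 per bp. A further region without a gene, on chromosome 2 from 11827057 to 11827415, held 58 against 34 tags, a ratio of 1.71 and of 1.94 per bp.

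Of the remaining pairs among the 10 deepest, those inside Zfp64, a zinc finger protein gene (61 against 49 tags), and inside Tm6sf1 (51 against 42 tags), and those without a transcript on chromosome 15 from 49307233 to 49307690 (58 against 46) and chromosome 4 from 12486713 to 12487310 (55 against 43), were below 1 per bp, at 0.770, 0.833, 0.944 and 0.939. The last, inside Gm101 on chromosome 1 with 50 against 41 tags, stayed at 1.21. Of the 10 deepest pairs, 6 reached 1.2 per bp, and 6 had regions of similar width.

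By position against transcripts, 289 of the 647 pairs lay inside or overlapped a transcript, 44.7% (40.9 to 48.5%), against 38.8% (38.3 to 39.3%) of the other well-covered pairs. Counted the other way, 2.19% (1.96 to 2.46%) of the 13173 pairs inside or overlapping transcripts reached 1.2 and 1.66% (1.49 to 1.86%) of the 17905 pairs without a transcript within 10 kb. Among the 2785 pairs outside transcripts but within 10 kb of one the share was 2.15% (1.68 to 2.76%), close to that inside. The intervals of the first 2 shares did not overlap, but they treat regions as independent draws from 1 library per mouse. The share of tags from Pemt-/- was close in these 2 classes, 38.8% and 38.5%. Among pairs of similar width the shares were 1.72% (1.45 to 2.04%) and 1.29% (1.09 to 1.52%), whose intervals overlap. Among pairs of 40 to 49 tags they were 3.63% (3.14 to 4.19%) and 2.98% (2.59 to 3.43%), which overlap as well. The order of the shares was the same in both subsets. They hold fewer pairs, so the overlap does not show that the difference was absent.

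Nearly all of the pairs at transcripts, 277, were wholly inside one. None overlapped the 5' end of a transcript, against 135 of the other well-covered pairs, 0.406% of them. A count of 0 of 647 allows a share of up to 0.464% by a floor of 3 counts (Wilson upper bound 0.590%), so a difference was not detectable with this number of pairs. Without a transcript overlapping, 35 pairs were upstream of one, 5.41% against 4.44% of the other pairs, and 25 were downstream, 3.86% against 3.76%. The nearest to a start was at Tmem70, a mitochondrial assembly factor, where the Pemt-/- region ended 480 bp and the Pemt+/+ region 320 bp upstream, with 33 against 25 tags on chromosome 1 from 16654439 to 16654791. Next was a region 789 bp upstream of B3galnt1 in Pemt-/-, a glycosyltransferase gene, with 36 against 27 tags on chromosome 3 from 69403572 to 69403945. A region 1196 bp upstream of Kpna1, which encodes an importin of nuclear transport, held 31 against 21 tags on chromosome 16, in regions of equal width. A region 1423 bp upstream of Ifit2, an interferon-induced gene, held 24 against 19 tags.

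At the 3' end of transcripts 11 pairs were found, 1.70% (0.952 to 3.02%), against 0.975% (0.875 to 1.09%) of the others. The largest ratio of these was at Lrrc2 on chromosome 9, with 40 against 19 tags. Mn1, a transcriptional coregulator gene, had 45 against 28 tags on chromosome 5. In both the Pemt-/- region was wider, 2.29 and 1.61 times as wide as its counterpart. A single pair covered a whole transcript, that of Gm6251, which lies at Mtap7 on chromosome 10, with 36 against 26 tags.

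The 647 pairs named 379 genes, 4.97% of the 7629 genes with a well-covered pair within 10 kb. Genes that held one of the 647 pairs inside were long, 89.6 kb in the median, and the remaining genes with a well-covered pair inside measured 52.3 kb (RefSeq lengths, at hand for 99.6% of both). The genes with one of the 647 pairs had a median of 3 well-covered pairs, the other genes 1. The part of gene length in this was not tested.

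In 16 genes 2 or 3 of the pairs occurred. The tags of each gene's remaining pairs came from Pemt-/- at shares between 31.3% (Rapgef2) and 47.4% (2410004B18Rik). Both ends rest on few tags, with intervals of 18.0 to 48.6% from 1 pair and 36.5 to 58.4% from 2 pairs. Here and below, the well-covered ones among a gene's remaining pairs were under the ratio limit by construction. The shares pool them with pairs of too few tags for the rule. Ratios and shares of a gene's other pairs therefore cannot show whether the rest of the gene lacked an excess of Pemt-/- tags. Dnahc8, an axonemal dynein gene on chromosome 17, had 3, with 30 against 17, 37 against 27 and 23 against 18 tags. Its other 17 well-covered pairs had ratios from 0.408 to 1, and all its pairs outside the 3 together held 36.2% of tags from Pemt-/- (33.9 to 38.6%). Heatr5b, on chromosome 17 as well, also had 3 by name, with 25 against 20, 48 against 40 and 49 against 39 tags, the last of them inside Ccdc75 and 3428 bp upstream of Heatr5b. Its 3 other well-covered pairs lay between 0.528 and 0.6, and all its other pairs held 37.9% (33.8 to 42.2%) of tags from Pemt-/-.

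Arsb, which encodes the lysosomal arylsulfatase B, had 27 against 16 and 29 against 20 tags at 2 sites inside the gene on chromosome 13, and 40.8% (34.9 to 47.0%) of tags from Pemt-/- in its other pairs. Met, the receptor of hepatocyte growth factor, had 1 pair inside the gene with 32 against 22 tags and 1 upstream with 24 against 18 tags on chromosome 6, and its other pairs gave 41.7% (36.0 to 47.6%). Long genes of neurons such as Auts2 (24 against 16 and 26 against 19 tags) and Cadps2 (30 against 24 and 39 against 26 tags) had 2 each, of 22 and 8 well-covered pairs. Dst, the cytoskeletal linker dystonin, also had 2 (28 against 22 and 46 against 25 tags), of 30 well-covered pairs. The collagen gene Col24a1 had 2 (35 against 29 and 24 against 20 tags), of 6. The other pairs of these 4 genes held 40.1%, 43.0%, 37.8% and 40.6% of tags from Pemt-/-. Bcl10 and its neighbour 2410004B18Rik share the same 2 pairs on chromosome 3, with 29 against 22 and 26 against 18 tags, and the few other pairs of Bcl10 gave 45.3% (37.2 to 53.6%). Arsb, Met and Bcl10 had 5, 4 and 4 well-covered pairs in all.

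Reads that the rule did not use gave close shares around these pairs and elsewhere. In pairs with fewer than 40 tags that lay within 100 kb of one of the 647, 41.9% of the tags came from Pemt-/- (41.6 to 42.3%, 3114 pairs), and near the other well-covered pairs the share was also 41.9% (41.8 to 42.0%, 40553 pairs, which include many of the former). Within 20 kb the shares were 41.6% (40.9 to 42.3%, 608 pairs) and 41.9%. Well-covered pairs within 100 kb that were not chosen themselves gave 38.4% from Pemt-/-, against 38.3% over all pairs not chosen. The rule had judged these well-covered pairs and left them out for a ratio below its limit. Their share therefore cannot show whether the surroundings held an excess. In the pairs with fewer than 40 tags, an excess of Pemt-/- tags near the 647 was not detectable at this depth.

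The 647 pairs were spread over all 19 autosomes. The share of well-covered pairs that reached 1.2 ranged from 1.26% (0.809 to 1.96%) on chromosome 11, which carries Pemt, to 2.64% (2.04 to 3.42%) on chromosome 3. Chromosome 3, with 56 of 2119 pairs, was the single autosome whose interval did not include the 1.91% of all well-covered pairs. The X chromosome had 6 of 230 pairs, 2.61% (1.2 to 5.57%), and chromosome Y had none of 11. Another of the 647 pairs lay within 100 kb in 61 cases, 9.43%, and within 20 kb in 10. No such share was computed for the other well-covered pairs, so these counts cannot show whether the pairs cluster.

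**Figure D5:**
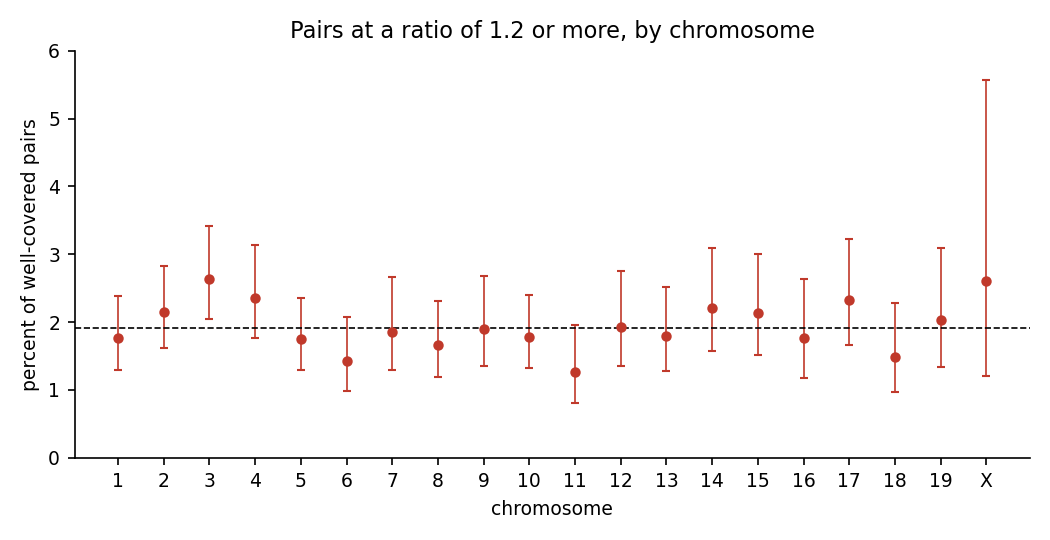
Percent of well-covered pairs that reached a ratio of 1.2 on each autosome and the X chromosome, with Wilson 95% intervals that cover counting error only. The dashed line is the 1.91% of all well-covered pairs, and the interval of chromosome 3 alone among the autosomes lies above it.

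Genes of the liver and of the pathways the study deals with, in 7 lists, held 6 of the 647 pairs. The count of each list is set beside the 1.91% of all well-covered pairs that reached 1.2. For phosphatidylcholine synthesis and one-carbon metabolism, which set the supply and use of the methyl donor, 18 of 46 listed genes had a well-covered pair, and none of their 44 pairs reached 1.2, with 0.488 expected. The enzymes that write, read or remove DNA methylation had 25 well-covered pairs at 12 of 25 genes and none at 1.2, with 0.204 expected. Inflammation and fibrosis genes had none of 31 pairs, with 0.337 expected. The median ratios of these lists, 0.701, 0.623 and 0.724, stood beside 0.625 over all well-covered pairs. With so few pairs expected, and 1.91% of all well-covered pairs at 1.2, a count of 0 does not set these lists apart.

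Among hepatocyte genes 2 of 24 pairs, at 2 of 12 genes, reached 1.2, with 0.238 expected from Poisson counting. That is 8.33% beside the 1.91% of all well-covered pairs, and too few pairs to set the list apart. The region inside Prox1, a homeobox factor of liver development, held 34 against 19 tags on chromosome 1 from 191985116 to 191986034, and the Pemt-/- region was 2.76 times as wide, with 0.648 per bp. The region inside Trf, the gene of the iron carrier transferrin, held 23 against 19 tags on chromosome 9 from 103123319 to 103123884, with 1.03 per bp. The lists of lipid metabolism and of p53, apoptosis and cell cycle had 1 pair each, of 48 and 60, with 0.528 and 0.566 expected. Their shares of 2.08% and 1.67% were near the same 1.91%.

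That of lipid metabolism was inside Lpin1, whose product lipin 1 makes the diacylglycerol used for triglyceride and phosphatidylcholine, on chromosome 12 from 16565353 to 16565879. It held 33 against 22 tags, a ratio of 1.5 and of 1.34 per bp, with widths 1.12 times apart. That of the cell cycle was inside Rb1, the retinoblastoma tumour suppressor, on chromosome 14 from 73679617 to 73680163, with 25 against 20 tags and 0.667 per bp.

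Imprinted genes, which carry methylation on 1 parental copy, had 2 of 89 pairs with 0.797 expected, 2.25% and close to the 1.91% of all. One was inside Asb4 on chromosome 6 (30 against 24 tags, 0.733 per bp) and the other inside transcripts of the Gnas complex on chromosome 2 from 174171110 to 174172034 (25 against 19 tags, 0.459 per bp). Over all 7 lists, 6 pairs reached 1.2 in tags, and of these the pair at Lpin1 alone did so per bp. Families with many similar copies, among which reads can be placed uncertainly, had 3 of 190 pairs at olfactory and vomeronasal receptor genes, 6 of 245 at zinc finger protein genes and 1 of 20 at the clustered protocadherins, shared by Pcdhb5 and Pcdhb6. Their shares, 1.58%, 2.45% and 5.00%, stand beside the same 1.91%. No pair reached 1.2 at Hox genes, which had 1 well-covered pair in all.

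Pemt, Fbxo31 and Hnf4a, which the study names, were not among the genes of these pairs. Pemt had 2 well-covered pairs, the higher at a ratio of 0.886. Fbxo31 had 5 pairs, and 1 of them was well covered. It lay at the 3' end of the transcript, with 22 tags in Pemt-/- and 37 in Pemt+/+. Its ratio of 0.595 was near the common ratio of 0.629, which contains any change shared by all regions. This 1 pair therefore shows neither less nor more methylation in Pemt-/-. The single pair of Hnf4a held 27 tags and was not well covered. The paper reports raised DNA methylation and lower mRNA of Fbxo31 and HNF4α in Pemt-/- mice, which was not tested here.

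The authors also deposited a shorter list for each mouse. Of the 647 pairs, 33 had their Pemt-/- region in the shorter Pemt-/- list with the same start and end, 5.10%, and only 7 of the 33216 other well-covered pairs had. None was in the shorter Pemt+/+ list, which held 967 of the others. The shorter lists were made from the same reads and their making is not described, so this is not a second measurement, and the false discovery rate deposited with all 33 was 100%. The 33 had a median ratio of 1.71, and 18 were of similar width. Besides Tmem2, Dhtkd1, Cat, Alg9, Klhl8 and the deep regions at Txndc11 and 2610528E23Rik, they included pairs without a gene, as on chromosome 13 from 58212090 to 58213002 with 49 against 35 tags.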

How the data were processed

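The submitters' processing notes name the build mm9, CASAVA version 1.8.2 and Bowtie. Region names are those of MACS, whose version, settings and control, and the handling of duplicate reads, are not given in the sources used here. The deposited tags are raw counts of reads per region. The fold enrichment is a ratio over background and the FDR a percent, both deposited by the authors, and the caller's p-values were deposited as a score on the −log10 scale, multiplied by 10. The score ranked regions for 2 alternatives only. Each region was used once. Calculations used Python version 3.11.15, pandas version 2.3.3, numpy version 2.4.6, scipy version 1.17.1 and matplotlib version 3.10.9, and were tested on simulated data. The Poisson number adds, over well-covered pairs, the binomial probability of a ratio of 1.2 or more given the sum and the common share. Upstream and downstream in the lists matched the RefSeq strand for 99.8% of 3386 transcripts. Shares have Wilson 95% intervals, for counting error only. With 1 library per genotype no test was run. The pairs and gene lists were chosen with earlier results of these data known. Named pairs were the 10 highest ratios, the 10 deepest, those of the fixed gene lists, up to 10 genes with several pairs, those next to the limit, up to 5 in a shorter list, and Pemt, Fbxo31 and Hnf4a. Pairs at 5' ends were also to be named, and there were none. Pairs near or at transcript ends, Met and the shared protocadherin pair were named after their values were seen. No genome of the build mm9 was used here, so no region sequence is printed.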

Additional observations from a re-analysis of the deposited data

How the results depend on the processing

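No paired analysis was possible because there is 1 library per genotype, and for the same reason no library could be left out. Of 60 values recomputed under alternatives, 39 stayed within their counting interval, or for counts within 1.5 times, and 21 did not. With 30 or more summed tags, 1721 pairs reached 1.2 and 1061 were expected, the median Pemt-/- width was 544 bp and the neighbours' share 44.1%. With 60 or more, 90 pairs did and 36.4 were expected, 48.9% of them at transcripts, with 709 bp, 40.5% and 4.44% within 100 kb of another. A ratio of 1.5 left 139 pairs, 40.3% at transcripts. These changes follow in part from the limits themselves. Counted per bp, 1574 pairs reached 1.2 and 606 were expected, with a median Pemt-/- width of 359 bp, and 246 were shared with the 647. Among pairs of similar width (within 25%) there were 300, with 516.5 bp and a neighbours' share of 42.4%. That share was 42.4% in the upper 50% of each list, 40.6% with lists of equal size and 41.6% within 20 kb. The cause of these shifts was not tested. Shares by band of tags, the median ratio or, added later, width class put the expectation at 355, 312 and 448. Leaving out the deepest of the 647, also added later, left 646 and an expectation of 326. Without the deepest of all well-covered pairs, added last, there were 647 and an expectation of 328. The observed number stayed above the expected one in all 10 pairings and limits compared, by 1.34 to 2.60 times. Depth limits single pairs, and their intervals of the Pemt-/- share come from the tags that chose them. All 647 intervals lay above the common share of 38.6%, which the limits on tags and ratio require, and 32 lay wholly above 50%. These counts describe the choice and are no support for single pairs.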
